A study of Homo sapiens with 9 samples.

Results

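Autophagy and lysosome genes were followed in HCT 116, an established line of human colorectal cancer cells, whose RNA was taken 24 hours after they received 1 of 3 vectors. The control group received the empty vector pcDNA3, the KL-FL group a vector for mouse full-length klotho, and the KL1 group a vector for the mouse KL1 subdomain alone. Klotho is a membrane protein that acts with FGF receptors as co-receptor for a hormone, and the series title links it to the unfolded protein response. Each group had 3 arrays, 9 in all, and all 3 groups went through transfection, so an effect shared by the procedure itself is present in the controls too. Transfection was transient, the share of cells that took up a vector is not given in the sources used here. Each value is an average over transfected and untransfected cells, and a change in the make-up of the culture cannot be told apart from a change of RNA per cell. The reagent was JetPEI or polyethylenimine, without a record of which array received which, so its part in any difference was not tested. The list holds 40 genes chosen by name from the pathway, with earlier results of these data known. Of these, 39 were read by a probe set naming that gene alone, 1 probe set per gene, among 17958 genes in all. BECN1 (Beclin 1) was named only together with another gene, on 2 probe sets, and was not analysed here.

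Autophagy encloses cytoplasm, organelles or protein aggregates in a double membrane that fuses with the lysosome. The ULK1 kinase starts the process and WIPI proteins mark the growing membrane. A conjugation system built from ATG7, ATG3, ATG5, ATG12 and ATG16L1 then attaches ATG8 proteins (MAP1LC3B and the GABARAP family) to lipid, where receptors such as SQSTM1 (p62) and NBR1 dock cargo. The lysosome digests the contents with hydrolases that need the acid made by the V-ATPase proton pump. TFEB and TFE3 are transcription factors that bind a DNA motif in many of these genes, called the CLEAR element, and both are known to act in starvation and in endoplasmic reticulum (ER) stress mainly by moving into the nucleus, which RNA values do not show.

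The CLEAR element was sought in the 250 bases before the start site of each gene in RefSeq's promoter table (GRCh38.p14), which held 31 of the 39 genes. The core searched was TCACGTGA, which reads the same on both strands, and the longer form searched has a G before and a C after it. The core was in 5 of the 31 genes (16.1%) against 1.04% of all 27305 genes in the table, and the longer form in 2 (6.45%) against 0.374%. The element is known from genes of this kind and the list was chosen by name, so the larger shares are not an independent result. The 5 stretches are shown because they are places, within the window searched, where TFEB or TFE3 could act on a member directly. Sites outside the window and members missing from the promoter table were not searched. Capitals mark the core or the longer form, and each sequence runs 5′ to 3′ towards the start site.
LAMP1 (chr13:113297180-113297238, + strand): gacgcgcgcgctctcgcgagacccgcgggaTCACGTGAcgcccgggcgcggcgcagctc
CTSA (chr20:45891279-45891334, + strand): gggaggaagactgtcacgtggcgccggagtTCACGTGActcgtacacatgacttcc
GAA (chr17:80101473-80101542, + strand): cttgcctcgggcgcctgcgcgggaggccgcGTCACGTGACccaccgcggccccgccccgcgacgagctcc
MCOLN1 (chr19:7522578-7522623, + strand): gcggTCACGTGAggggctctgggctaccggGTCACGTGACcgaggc
ATP6V0D1 (chr16:67481180-67481247, - strand): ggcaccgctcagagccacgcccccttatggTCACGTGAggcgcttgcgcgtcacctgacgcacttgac
The shorter E-box CACGTG, contained in both forms, was in 7 of the 31 genes (22.6%) against 7.73% of all genes, adding ATG3 and the protease gene CTSD. An element bound by ATF4 with C/EBP factors such as CHOP, searched as TTGCATCA and its reverse complement TGATGCAA, was in 0 of the 31 and in 0.967% of all genes. With a share that low, 0 of 31 does not set the members apart from all genes. A match is a description of letters in this window, not evidence of binding.

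With KL-FL, 0 of the 39 genes passed limma's test over all genes at an adjusted p of 0.05, where 0.00557% of all genes did. The lowest adjusted p was 0.688. At an unadjusted p under 0.05 there were 3 of 39, GPR137B lower and ATG5 and ATG12 higher, where the share of all genes was 7.16%. All genes gave 4.88% on the higher side and 2.28% on the lower. The median log2 difference over the members was 0.0095 against 0.0099 over all genes, with 21 higher and 18 lower (57.3% of all genes were higher). Without KL-FL replicate 2 the split was 14 higher and 25 lower, with a median of -0.025. With KL1, 0 passed as well, with a lowest adjusted p of 0.478 and a background of 0.00557%. There, 1 of 39 had an unadjusted p under 0.05, GPR137B on the lower side, against 5.1% of all genes, of which 2.99% higher and 2.11% lower. The median was -0.016 against 0.0026, with 15 higher and 24 lower (52.1% of all genes were higher). Without KL1 replicate 3 it was 0.0016, with 20 higher. Between KL-FL and KL1, 0 of 39 passed, where 0% of all genes did, and 2 had an unadjusted p under 0.05, GPR137B and GABARAPL2, both higher with KL-FL, against 5.05% of all genes (3.49% higher, 1.55% lower). In that comparison 28 of 39 members were higher with KL-FL (54.4% of all genes), with a median of 0.016. The 1 gene past the test over all genes in each comparison with control was DDIT3 (CHOP), with log2 differences of 0.65 and 0.78.

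The intervals show the precision for each gene alone, without adjustment over the 39 members. The 95% interval of a member's difference had a median width of 0.12 to either side in each comparison. The widths are equal because the model pools the spread of the 3 groups. The members' median SD was 0.073 with KL-FL, 0.038 in control and 0.051 with KL1, which a pooled width does not show. Taken over all members, the intervals for KL-FL ran from -0.33 (CTSB) to 0.51 (ATG12) on the log2 scale, folds of 0.79 and 1.42. For KL1 they ran from -0.30 (GPR137B) to 0.34 (ATG12), folds of 0.81 and 1.27. The interval lay within 0.5 of 0 for 38 of 39 members with KL-FL and for 39 of 39 with KL1. The labels do not say whether replicates were separate cultures, so these errors measure the spread between arrays, which may be technical.

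**Figure D1:**
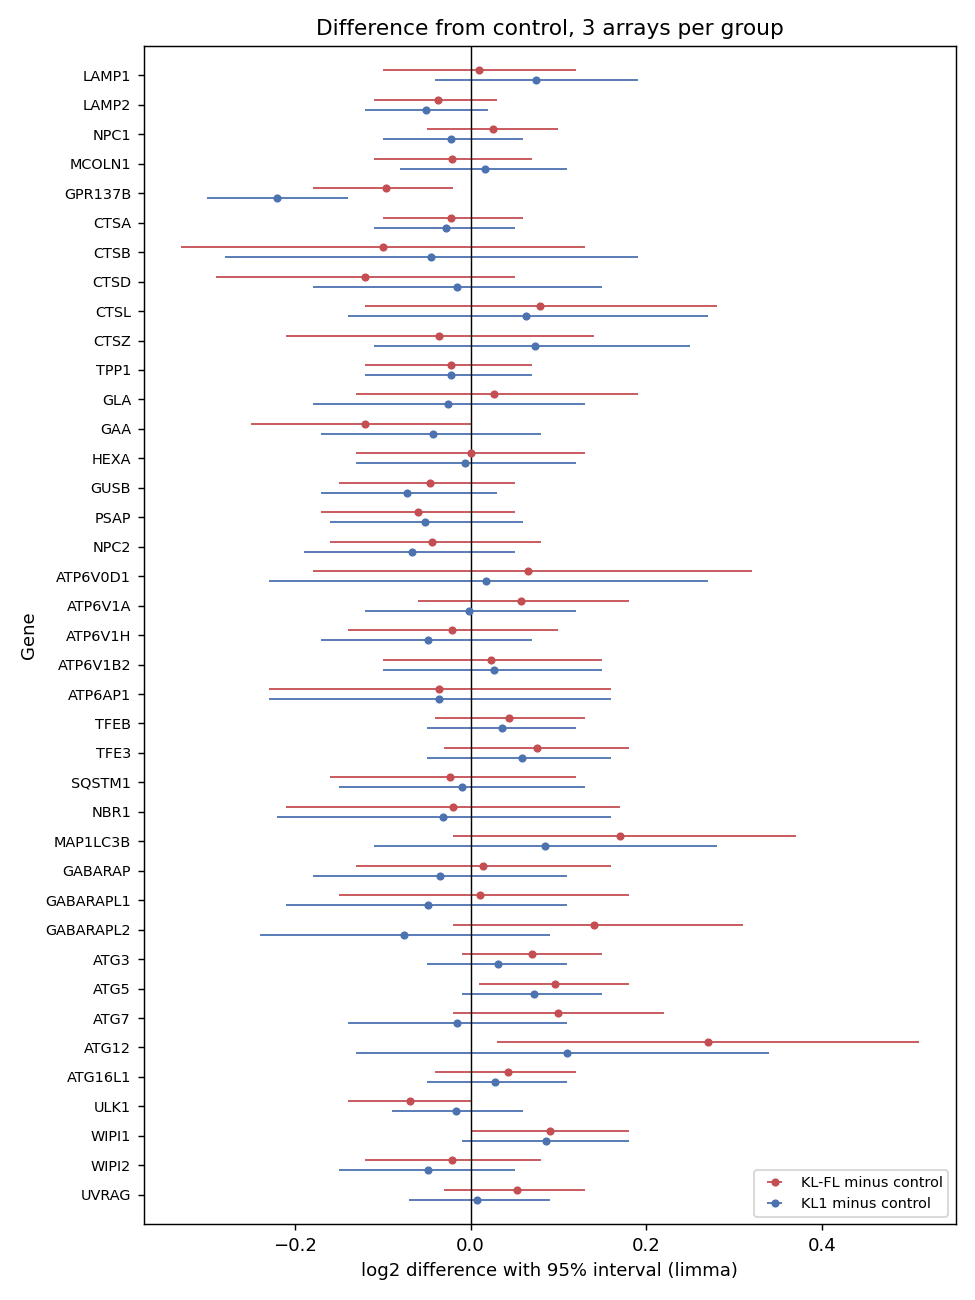
Log2 difference from control of each of the 39 genes (points) with its 95% interval from limma (bars), for KL-FL (red) and KL1 (blue), 3 arrays per group. GPR137B with KL1 lies farthest below 0 at -0.22, ATG12 with KL-FL farthest above at 0.27, and both comparisons use the same 3 controls.

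Array quality bears on the KL-FL group. KL-FL replicate 3 stood apart, with a median correlation over genes of 0.997 to the other 8 arrays, against 0.998 for KL1 replicate 2 and 0.999 for the remaining 7. It was the lowest of the 9 arrays in 19 of the 39 members (48.7%), against 23.9% of all genes. Median deviations of the members from the control mean were 0.027, 0.064 and -0.079 on KL-FL replicates 1, 2 and 3, and those of all genes 0.0079, 0.024 and -0.0049. The members' median SD within a group was 0.073 with KL-FL, 0.038 in control and 0.051 with KL1. Without KL-FL replicate 3, 31 of 39 members were higher with KL-FL (64.1% of all genes were), with a median of 0.045. In that fit 8 of 39 had an unadjusted p under 0.05, a larger share than the 8.24% of all genes, and 0 passed. The count was 2 without KL-FL replicate 1 (6.41% of all genes) and 4 without replicate 2 (9.56%). Of 12 epithelial markers 6 (EPCAM, CDH1, KRT8, KRT18, KRT19 and CDX2) lay above the median gene level of 5.39. Of the leukocyte markers 1 of 7 lay above it, and of the fibroblast and endothelial markers 1 of 9. The mean level of the epithelial list was 6.57 to 6.59 in control, 6.51 to 6.6 with KL-FL and 6.55 to 6.57 with KL1. The part of replicate 3 and of these markers in the differences was not tested beyond the values without that array.

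**Figure D2:**
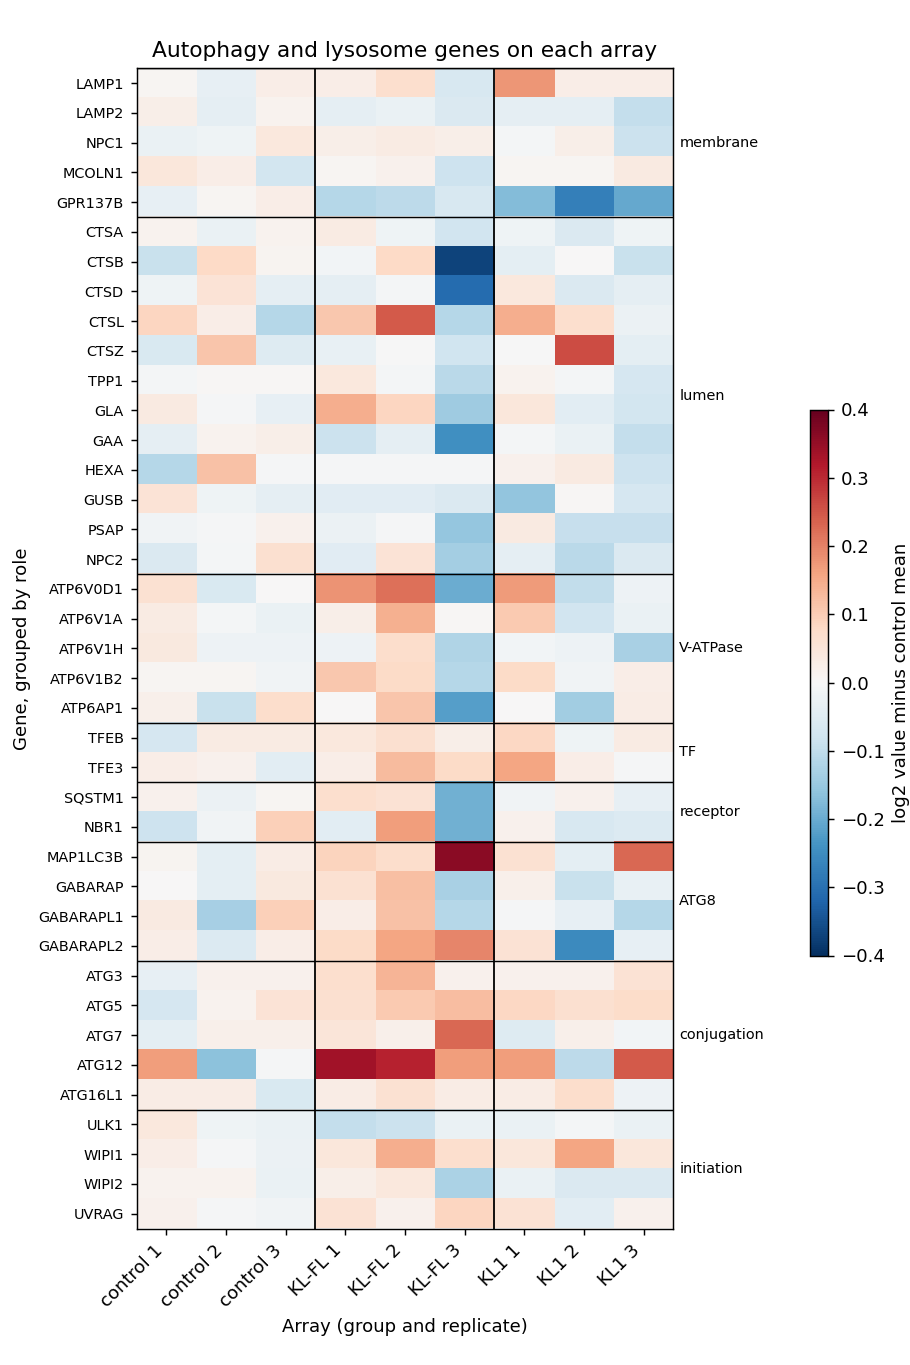
Each row is 1 gene and each column 1 array; colour is the log2 value minus the mean of the 3 controls, from -0.4 (blue) to 0.4 (red), with genes grouped by role. KL-FL replicate 3 shows the blue block across the lumen proteins, and GPR137B is blue on all 6 klotho arrays, most on KL1 replicate 2.

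Among lysosomal membrane proteins, the gene with the smallest p in all 3 comparisons was GPR137B (probe set 7910680), which encodes a lysosomal membrane protein that regulates mTORC1, the kinase complex that holds autophagy in check. Its log2 values were 7.21, 7.25 and 7.27 in control, 7.13, 7.14 and 7.18 with KL-FL, and 7.07, 6.97 and 7.04 with KL1. The groups did not overlap: every KL1 array lay below every KL-FL array, and every KL-FL array below every control. The KL1 difference was -0.22 (SE 0.035, 95% interval -0.30 to -0.14), a fold of 0.86, with adjusted p = 0.478 in limma. By p it was number 6 of 17958 genes in that comparison. The members were chosen with earlier results of these data known, so this rank is not independent support. KL-FL differed from control by -0.096 (SE 0.035, adjusted p = 0.688) and from KL1 by 0.12 (SE 0.035, adjusted p = 0.855). Leaving out any single array kept the KL1 difference between -0.24 and -0.19. Groups that do not overlap were found in 3 of 39 members for KL1 against control, where the share of all genes was 9.47%, and GPR137B was the 1 of them on the lower side, where the share was 4.34%. ATG5 and WIPI1 were on the higher side, where it was 5.13%. With array weights estimated from the spread of these same data, the KL-FL difference was -0.12 and passed, with adjusted p = 0.0447. The weights were 6.76, 0.554 and 0.265 on KL-FL replicates 1, 2 and 3, so the weighted KL-FL mean rested mostly on replicate 1.

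The other membrane proteins lay close to control. LAMP1, the abundant glycoprotein of the lysosomal membrane, had log2 values of 7.95, 7.91 and 7.97 in control, 7.97, 8.01 and 7.88 with KL-FL, and 8.12, 7.97 and 7.97 with KL1. KL1 replicate 1 gave the highest value, and the groups overlapped. Its differences were 0.0095 (SE 0.050) with KL-FL and 0.075 (SE 0.050) with KL1, with limma adjusted p = 0.968 and 0.927. The KL1 difference was 0.027 without KL1 replicate 1. LAMP2, a membrane glycoprotein that also serves chaperone-mediated autophagy, had 7.22, 7.16 and 7.21 in control, 7.16, 7.17 and 7.14 with KL-FL, and 7.16, 7.16 and 7.10 with KL1. It differed by -0.051 (SE 0.031, adjusted p = 0.927) with KL1, and by -0.031 without KL1 replicate 3. NPC1, which exports cholesterol from the lysosome, and the calcium channel MCOLN1 had small differences, the former of 0.025 with KL-FL and -0.022 with KL1, the latter of -0.021 and 0.016.

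Of 12 hydrolases and other lumen proteins, 0 passed in either comparison with control and 0 had an unadjusted p under 0.05. The shares of all genes under that limit were 7.16% with KL-FL and 5.1% with KL1, so a count of 0 in 12 genes says little. With KL-FL 9 were lower and 3 higher, with a median log2 difference of -0.040, and with KL1 10 were lower and 2 higher, with a median of -0.027. The KL-FL median rested on replicate 3, which was the lowest of the 9 arrays in 10 of the 12. Without it 7 were higher and 5 lower, with a median of 0.0029, a change of sign. The KL1 median was -0.011 without KL1 replicate 3 and -0.012 after quantile normalization, with the direction kept.

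CTSB, a cysteine protease, had values of 8.15, 8.32 and 8.25 in control, 8.23, 8.32 and 7.87 with KL-FL, and 8.20, 8.24 and 8.15 with KL1. CTSD, the main aspartic protease of the lysosome, had 8.74, 8.81 and 8.72 in control, 8.72, 8.75 and 8.45 with KL-FL, and 8.80, 8.70 and 8.72 with KL1. In both genes the first 2 KL-FL arrays lay within or near the control range and replicate 3 far below it. GAA, the enzyme that digests glycogen in the lysosome, had 6.16, 6.21 and 6.22 in control, 6.11, 6.16 and 5.95 with KL-FL, and 6.19, 6.17 and 6.10 with KL1. Its KL-FL difference was -0.12 (SE 0.055, limma adjusted p = 0.695), or -0.062 without KL-FL replicate 3. GUSB, which removes glucuronic acid from glycosaminoglycans, had 6.43, 6.36 and 6.34 in control, 6.33, 6.33 and 6.32 with KL-FL, and 6.22, 6.38 and 6.31 with KL1. All KL-FL arrays lay just below the controls, while KL1 overlapped them. It differed by -0.072 (SE 0.044, adjusted p = 0.927) with KL1. That difference was -0.030 without KL1 replicate 1. CTSL and CTSZ, further cathepsins, differed with KL1 by 0.063 and 0.073, the 2 higher lumen genes. The remaining lumen genes were CTSA, TPP1, GLA, HEXA, PSAP and NPC2, and their differences from control lay between -0.067 (NPC2 with KL1) and 0.027 (GLA with KL-FL).

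The 5 V-ATPase genes had a median difference of 0.023 with KL-FL and -0.0015 with KL1 (0.0062 after quantile normalization). In either, 0 of them had an unadjusted p under 0.05, where 7.16% of all genes did with KL-FL and 5.1% with KL1. Their spread was wide within the klotho groups. ATP6V0D1, a subunit of the membrane sector, had 8.40, 8.28 and 8.34 in control, 8.52, 8.56 and 8.14 with KL-FL, and 8.51, 8.24 and 8.32 with KL1. KL-FL replicates 1 and 2 lay above all controls and replicate 3 below them. With KL-FL replicate 3 left out the group median was 0.083, with replicate 2 left out -0.011, and with replicate 1 left out -0.018, so its direction depended on single arrays. The catalytic-sector subunits ATP6V1A, ATP6V1B2 and ATP6V1H differed by 0.057, 0.023 and -0.021 with KL-FL, and the accessory subunit ATP6AP1 by -0.036.

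**Figure D3:**
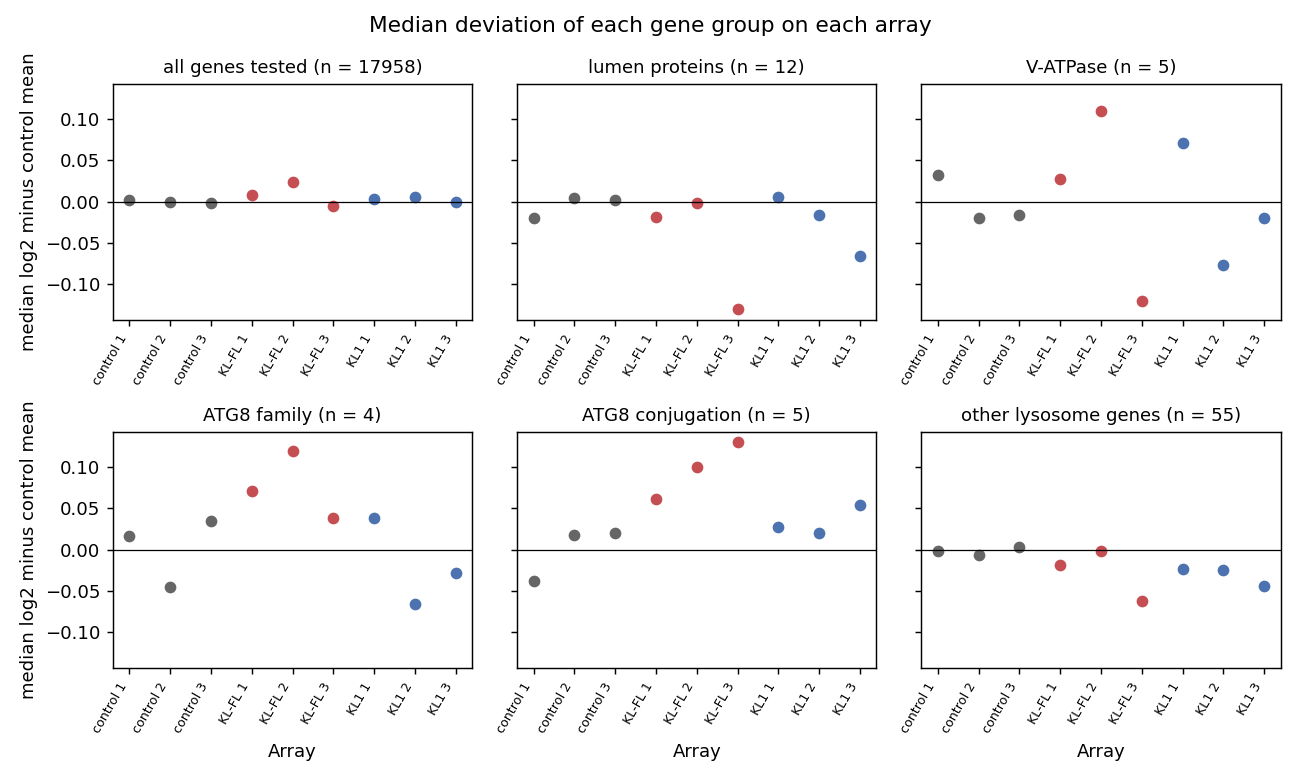
Median deviation from the control mean (log2) of 6 gene groups on each array, with control in grey, KL-FL in red and KL1 in blue. The lumen proteins drop to -0.13 on KL-FL replicate 3, and the ATG8 conjugation genes sit at 0.061, 0.10 and 0.13 on the 3 KL-FL arrays, above each control.

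The transcription factors were near control. TFEB (probe set 8126312) had 4.81, 4.91 and 4.91 in control, 4.92, 4.94 and 4.90 with KL-FL, and 4.96, 4.86 and 4.91 with KL1, and all 3 groups overlap. TFEB lay below the median gene level of 5.39, and no detection call separates its signal from background. Its differences were 0.044 (SE 0.039, 95% interval -0.04 to 0.13) and 0.036 (SE 0.039, -0.05 to 0.12), with adjusted p = 0.782 and 0.935 in limma. Without control replicate 1, the lowest array, they were 0.012 and 0.0032. TFE3 had 6.13, 6.12 and 6.06 in control, 6.13, 6.23 and 6.18 with KL-FL, and 6.26, 6.13 and 6.10 with KL1. It differed by 0.076 (SE 0.047) and 0.059 (SE 0.047), with adjusted p = 0.729 and 0.929, and overlapped control in both. The KL1 difference was 0.013 without KL1 replicate 1. The 5 genes with the CLEAR core had a median difference of -0.021 with KL-FL and 0.016 with KL1, against 0.019 and -0.017 in the other members of the promoter table. KL-FL replicate 3 was the lowest array in each of these 5 genes. It read 7.88 (LAMP1), 9.24 (CTSA), 5.95 (GAA), 6.55 (MCOLN1) and 8.14 (ATP6V0D1). Without that array the KL-FL difference was 0.045 in LAMP1 and -0.062 in GAA. The median of the 5 genes without it was not computed, so their KL-FL median cannot be read apart from that array.

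Cargo receptors overlapped control too. SQSTM1, which is itself degraded by autophagy and whose transcript can be induced by stress, had 8.11, 8.07 and 8.10 in control, 8.16, 8.15 and 7.90 with KL-FL, and 8.08, 8.11 and 8.06 with KL1. Its KL-FL difference of -0.023 (SE 0.063, limma adjusted p = 0.939) became 0.061 without KL-FL replicate 3, which was the lowest array. The KL1 difference was -0.0093 (SE 0.063), and its sign turned under quantile normalization. NBR1, a related receptor, differed by -0.020 and -0.031.

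The ATG8 family showed 4 of 4 members higher with KL-FL, by 0.011 to 0.17, where 57.3% of all genes were higher. Of the 4, 0 had an unadjusted p under 0.05, where 7.16% of all genes did. Without KL-FL replicate 2, or without control replicate 2, 2 of the 4 were higher. MAP1LC3B, the LC3 protein most used to mark autophagosomes, had 5.56, 5.51 and 5.58 in control, 5.64, 5.62 and 5.91 with KL-FL, and 5.61, 5.51 and 5.78 with KL1. All KL-FL arrays lay above all controls, replicate 3 by far the most. The difference was 0.17 (SE 0.086, adjusted p = 0.702), and 0.080 without KL-FL replicate 3. With KL1 it was 0.085 (SE 0.086, adjusted p = 0.933), and 0.012 without KL1 replicate 3. A further probe set named MAP1LC3B together with another gene and was not used.

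GABARAPL2 (probe set 7997272), also called GATE-16, had 8.74, 8.66 and 8.74 in control, 8.79, 8.87 and 8.91 with KL-FL, and 8.77, 8.46 and 8.68 with KL1. KL-FL lay above both other groups on 3 of 3 arrays, while KL1 overlapped control. The difference between KL-FL and KL1 was 0.22 (SE 0.072, 95% interval 0.06 to 0.38, adjusted p = 0.855 in limma), and 0.13 without KL1 replicate 2. Groups that do not overlap were found in 2 of 39 members in that comparison, against 6.88% of all genes (4.67% higher, 2.21% lower). Both were higher with KL-FL. Without KL-FL replicate 3, with 2 arrays against 3, the count was 12 of 39, a larger share than the 18.0% of all genes. Without KL-FL replicate 1 it was 3 (13.1% of all genes) and without replicate 2 it was 4 (17.9%), both smaller shares. The excess thus depended on which array was left out. GABARAPL1 had 8.11, 7.94 and 8.17 in control, 8.10, 8.19 and 7.96 with KL-FL, and 8.07, 8.04 and 7.96 with KL1. Its values overlapped in the 3 groups, with differences of 0.011 (SE 0.072) and -0.049 (SE 0.072), and the KL-FL sign turned without control replicate 2 (-0.055) or KL-FL replicate 2 (-0.043). GABARAP differed by 0.014 and -0.035.

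The 5 ATG8 conjugation genes were all higher with KL-FL, with a median log2 difference of 0.096 against 0.0099 over all genes, and 2 of them had an unadjusted p under 0.05, where 7.16% of all genes did. The direction was the same in all 5 under each alternative run, and the median ran from 0.058 with array weights to 0.11 without KL-FL replicate 1 or control replicate 3. Of the 5, 0 passed the test. With KL1 the median was 0.031, with 4 of 5 higher.

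ATG12 (probe set 8113651), the ubiquitin-like protein joined to ATG5, had 8.18, 7.85 and 8.01 in control, 8.35, 8.32 and 8.18 with KL-FL, and 8.18, 7.91 and 8.26 with KL1. The lowest KL-FL array and the highest control both round to 8.18, and control itself spread over 0.17 (SD, n = 3). The KL-FL difference was 0.27 (SE 0.11, adjusted p = 0.688 in limma), a fold of 1.21, and ran from 0.19 without control replicate 2 to 0.36 without control replicate 1. With the same array weights, which rest mostly on KL-FL replicate 1, it was 0.35 and passed, with adjusted p = 0.0457. With KL1 it was 0.11 (SE 0.11, adjusted p = 0.933). KL-FL and KL1 differed by 0.17 (SE 0.11, adjusted p = 0.855), and by 0.064 without KL1 replicate 2.

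ATG5 (probe set 8128592) had 7.52, 7.60 and 7.64 in control, 7.65, 7.69 and 7.71 with KL-FL, and 7.67, 7.65 and 7.66 with KL1. All 6 klotho arrays lay above all 3 controls. The differences were 0.096 (SE 0.036, adjusted p = 0.688) and 0.072 (SE 0.036, adjusted p = 0.927) in limma, or 0.064 and 0.040 without control replicate 1, the lowest control. ATG7, the E1-like enzyme that activates both ATG12 and the ATG8 proteins, had 6.17, 6.23 and 6.23 in control, 6.26, 6.23 and 6.44 with KL-FL, and 6.16, 6.23 and 6.20 with KL1. Its highest value was on KL-FL replicate 3, and the difference between KL-FL and KL1, 0.12 (SE 0.055, adjusted p = 0.855), was 0.049 without that array. ATG3, the E2-like enzyme, differed from control by 0.070 and 0.031, and ATG16L1, which places the complex on the membrane, by 0.042 and 0.028.

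Genes of initiation and nucleation were split, with 2 higher and 2 lower of 4 in each comparison with control. WIPI1 (probe set 8017850), which binds the lipid PI3P on the forming membrane, had 7.78, 7.75 and 7.73 in control, 7.80, 7.90 and 7.82 with KL-FL, and 7.80, 7.91 and 7.80 with KL1. All 6 klotho arrays lay above all controls, by 0.090 (SE 0.041, adjusted p = 0.700) and 0.086 (SE 0.041, adjusted p = 0.927) in the group means. The KL1 difference was 0.051 without KL1 replicate 2. ULK1 had 6.10, 6.04 and 6.03 in control, 5.96, 5.97 and 6.03 with KL-FL, and 6.03, 6.05 and 6.03 with KL1. KL-FL was lower than KL1 by -0.053 (SE 0.033, adjusted p = 0.855), and the groups overlapped. WIPI2 differed from control by -0.021 and -0.048, and UVRAG, a partner of Beclin 1, by 0.053 and 0.0073. Counted over all roles, 7 of 39 members had KL-FL arrays all on 1 side of the controls, against 10.4% of all genes. They were MAP1LC3B, GABARAPL2, ATG5, ATG12 and WIPI1 on the higher side, where the share of all genes was 7.13%, and GPR137B and GUSB on the lower side, where it was 3.25%. Without KL-FL replicate 3, with 2 arrays against 3, the count was 18 of 39, a larger share than the 23.2% of all genes. It was 8 without KL-FL replicate 1 (17.3% of all genes) and 11 without replicate 2 (22.2%).

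**Figure D4:**
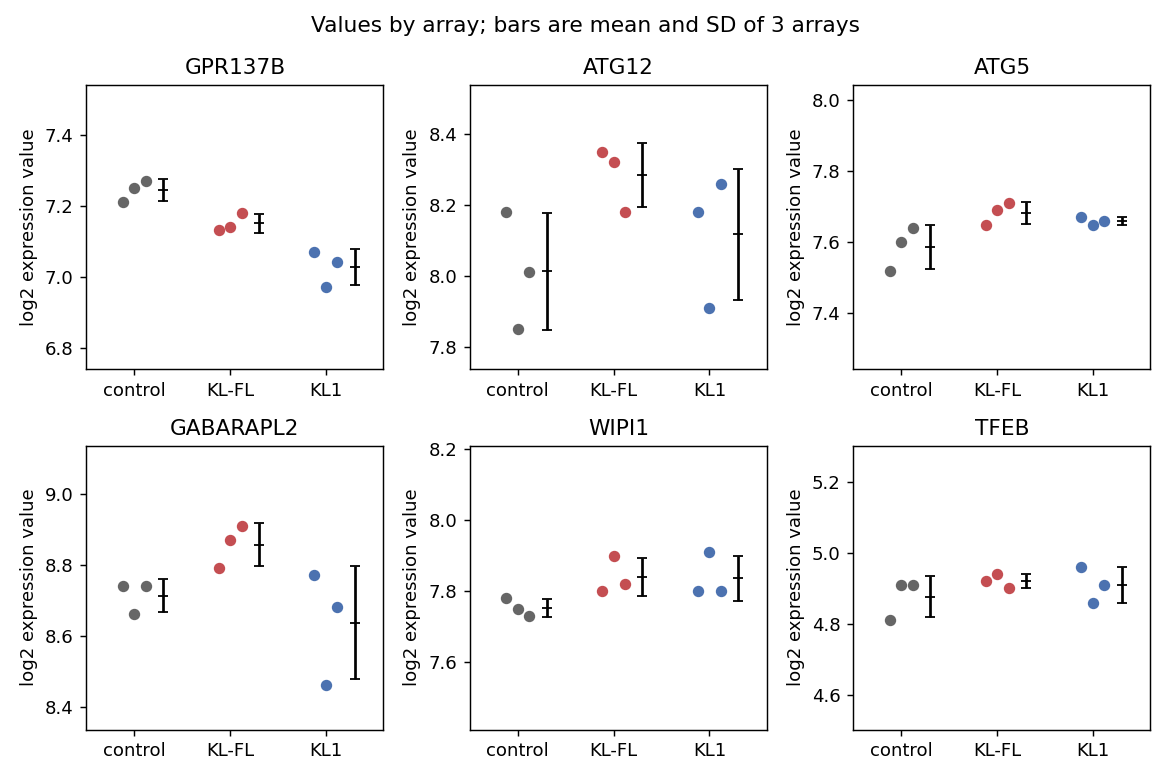
Log2 values of 6 genes on every array (points), with group mean and SD of 3 arrays beside them; each panel spans 0.8 log2 units, so heights can be compared between panels. GPR137B steps down from control to KL-FL to KL1 with no overlap, GABARAPL2 is highest with KL-FL, and TFEB overlaps in all groups.

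Other genes of the pathway were read from lists of further lysosome, autophagy and ER-phagy genes, 105 of 112 of which were measured. Of the 105, 0 passed with either vector, and 9 with KL-FL (8.57%, against 7.16% of all genes) and 4 with KL1 (3.81%, against 5.1%) had an unadjusted p under 0.05. With the array weights, which rest mostly on KL-FL replicate 1, 5 of the 105 passed with KL-FL. In that fit 523 of all 17958 genes passed. Of 55 further lysosome genes, 45 were lower with KL1 and 10 higher (18.2%, where 52.1% of all genes were higher), with a median of -0.036. The count lower was 41 after quantile normalization and 47 with arrays centred on their medians. Without KL1 replicate 3 it was 40, with a median of -0.025. With KL-FL 33 were lower, with a median of -0.028, which was -0.0045 without KL-FL replicate 3. The 41 further autophagy genes had medians of 0.020 and 0.0072, with 24 higher in each comparison.

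Among these, the smallest p-values with KL-FL were those of CTSC, STX17 and MAP1LC3C. CTSC, a lysosomal dipeptidyl peptidase, had 7.80, 7.83 and 7.84 in control, 7.68, 7.73 and 7.63 with KL-FL, and 7.72, 7.75 and 7.73 with KL1. All klotho arrays lay below all controls, with differences of -0.15 (SE 0.033, adjusted p = 0.550) and -0.094 (SE 0.033, adjusted p = 0.927) in limma. With the array weights, which rest mostly on KL-FL replicate 1, the KL-FL difference was -0.14 and passed, with adjusted p = 0.0260. STX17, the SNARE that fuses autophagosomes with lysosomes, had 6.52, 6.57 and 6.53 in control, 6.77, 6.63 and 6.83 with KL-FL, and 6.67, 6.63 and 6.63 with KL1. Here all klotho arrays lay above all controls, by 0.21 (SE 0.047, adjusted p = 0.550) with KL-FL and by 0.11 (SE 0.047, adjusted p = 0.927) with KL1. With the same weights STX17 differed by 0.22 with KL-FL and passed, with adjusted p = 0.0247. MAP1LC3C, a further LC3 protein, had 4.11, 4.11 and 4.10 in control, 4.15, 4.29 and 4.39 with KL-FL, and 4.15, 4.16 and 4.15 with KL1. Its KL1 difference was 0.046. The KL-FL difference of 0.17 (SE 0.054, adjusted p = 0.688) lies near the low end of the scale, where no detection call separates signal from background, and was 0.11 without KL-FL replicate 3.

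With KL1 the smallest p-values were those of CTSC, ATP6V0A1 and RETREG3. ATP6V0A1, a membrane-sector subunit of the V-ATPase, had 8.24, 8.18 and 8.18 in control, 8.02, 8.08 and 8.16 with KL-FL, and 8.15, 8.0 and 8.03 with KL1. Its differences were -0.11 (SE 0.050, adjusted p = 0.695) with KL-FL and -0.14 (SE 0.050, adjusted p = 0.927) with KL1 in limma. RETREG3, a receptor for ER-phagy, the removal of ER by autophagy, had 7.46, 7.57 and 7.44 in control, 7.39, 7.42 and 7.30 with KL-FL, and 7.42, 7.32 and 7.37 with KL1. It differed by -0.12 with either vector (SE 0.048, adjusted p = 0.688 with KL-FL and 0.927 with KL1). In both genes all 6 klotho arrays lay below all controls. The 9 ER-phagy receptors as a list had medians of -0.015 with KL-FL and -0.018 with KL1, with 3 and 4 higher.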

How the data were processed

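The values deposited by the authors were log2 expression levels of 33297 probe sets on 9 arrays, made with Partek 6.6 per the submitters' processing notes from 100 ng of RNA per sample. The sources used here do not name the background correction, normalization or log base; log2 was inferred from the range, 1.79 to 12.4, and values were used as deposited. The number of arrays limits precision, and the table holds no detection call.

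Probe sets naming 1 gene were kept (19181, while 2055 named several and 12061 were unnamed here), and the brightest stood for a gene. A model of 3 groups, grouped by title, was fitted over 17958 genes with limma 3.58.1 in R 4.3.3. Two-sided p-values had Benjamini-Hochberg adjustment over all genes, at 0.05. The code was also run on simulated data with independent noise and no outlying array. That run does not show the power of the test on these arrays. Control and KL1 arrays with the same number shared deviations from their group means (correlations 0.113, 0.322 and 0.186). With KL-FL the highest was 0.0974. The labels do not say whether arrays with equal numbers belong together. The main model therefore holds no pairing, and the replicate number entered as a block in an alternative only.

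Members and lists were chosen with earlier results of these data known. Values on every array are given for the 5 members with the smallest p per comparison, for TFEB, TFE3, SQSTM1, MAP1LC3B, GABARAPL1 and LAMP1, and for the 3 other pathway genes with the smallest p per comparison with control; CTSB, CTSD and ATP6V0D1 were added after their values were seen. Alternatives were other normalizations, filters, variance models, array weights, a replicate block and leaving out each array.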

Additional observations from a re-analysis of the deposited data

How the results depend on the processing

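Each comparison was refitted under 19 alternatives, and in all of them 0 of the 39 members passed with KL1 or between KL-FL and KL1. With KL-FL the count was 0 in 18 and 2 with array weights: GPR137B (-0.12, adjusted p = 0.0447) and ATG12 (0.35, adjusted p = 0.0457). Those weights ran from 0.265 on KL-FL replicate 3 to 6.76 on KL-FL replicate 1. In that fit 523 of all 17958 genes were called. With the replicate number as a block 0 members passed in any comparison; with KL-FL 6 members then had an unadjusted p under 0.05, against 3 without the block (7.65% and 7.16% of all genes), and GPR137B had adjusted p = 0.895 with KL1. Of 33 named differences under all alternatives, 9 values turned sign. For KL-FL, SQSTM1 was 0.059 with array weights and ran from -0.067 to 0.061 with 1 array left out; GABARAPL1 ran from -0.055 to 0.075 and LAMP1 from -0.018 (-0.0082 without control replicate 2) to 0.045. For KL1, SQSTM1 was 0.013 after quantile normalization and ran from -0.022 to 0.0016 (0.00019 without control replicate 1). The cause was not tested. The number of members at an unadjusted p under 0.05 ran from 1 to 9 with KL-FL and from 1 to 3 with KL1, while the share of all genes ran from 5.17% to 22.1% and from 4.04% to 7.73%. The highest KL-FL count and share were both those with array weights. The number of arrays limits precision, and the interval of a difference varied by gene.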
